A study of Arabidopsis thaliana with 6 samples.

Results

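The 1.2 Mb around SME1 on chromosome 2 of Arabidopsis thaliana is described here: every gene whose leftmost exon start lay between positions 7500000 and 8700000 in the transcript annotation deposited with the data, on the TAIR10 coordinate system. The window held 362 of the 37869 annotated genes, and position alone chose them. SME1 (AT2G18740), at chr2:8123103-8125078 on the plus strand, sat near the middle, with 192 members to its left and 169 to its right. The samples were 3-week-old seedling shoots of the Col-0 ecotype, grown in vitro on sucrose-containing medium under long days and harvested at control conditions with no stress applied. The groups were sme1-1 (3 libraries, named smeb-1 on the sample labels and sme1 below) and wild-type Col-0 (3 libraries, WT below). The lesion in sme1-1, how many plants went into a library and whether the libraries came from separately grown plants are not stated, so every p-value below measures the spread between these libraries. The sme1 plants are represented by 1 allele, and no second allele or complemented line is among the samples.

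SME1 encodes an SmE protein, a member of the heptameric Sm ring that is loaded onto spliceosomal small nuclear RNAs and is required for the assembly of the spliceosome. In a mutant line the DNA beside the mutated gene is inherited with it, and a mutation can also alter transcription of the genes next to it, so the flanking genes are a control for any account of a mutant's transcriptome. The question was whether genes linked to SME1 differed between sme1 and WT more often, or in another direction, than genes elsewhere.

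The genes at SME1 are packed closely on the plus strand, and the bases between them are shown because the group of lowered genes described below ends here. DGK3 is followed by AT2G18735, a gene for a noncoding RNA, then by SME1 and by AT2G18750, a calmodulin-binding protein gene. The deposited annotation leaves 171 bases between DGK3 and AT2G18735, 26 between AT2G18735 and SME1, 49 between SME1 and AT2G18750, and 2 between AT2G18750 and the next gene, CHR8. The following 3 stretches were read from the plus strand of the RefSeq TAIR10.1 genome at chr2:8121948-8122118, chr2:8123077-8123102 and chr2:8125079-8125127, and none holds any of the motifs searched for below. The promoter window of SME1, which reaches back into AT2G18735, does hold a G-box, and that of AT2G18735, which reaches into DGK3, a W-box. The gap before SME1 and the promoter window of SME1 end at the start of a minor assembled transcript, TCONS_00018959, which averaged 2.31 TPM in WT. The main SME1 transcript, which averaged 71.9 TPM in WT, starts further right, at 8123221.
DGK3 to AT2G18735: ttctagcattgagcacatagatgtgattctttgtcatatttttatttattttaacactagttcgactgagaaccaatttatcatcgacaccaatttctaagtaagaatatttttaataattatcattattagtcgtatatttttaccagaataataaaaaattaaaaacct
AT2G18735 to SME1: aaaaaaaaaaaaaaaaagttaaaaac
SME1 to AT2G18750: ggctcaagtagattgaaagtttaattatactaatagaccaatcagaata

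Expression was given as TPM, a level per transcript length scaled so that the transcripts of each library sum to 1000000, so sequencing depth is unknown. Genes that averaged 1 TPM or more over the 6 libraries were tested with limma on log2(TPM + 1), with Benjamini-Hochberg adjustment over all 20100 such genes of the table and a threshold of 0.05 on the adjusted p. Log2 changes are sme1 over WT on that scale, which understates the change of genes at low levels. Whole libraries separated by genotype: correlations of log2 values were 0.982 to 0.988 between sme1 libraries, 0.985 to 0.990 between WT libraries and 0.855 to 0.903 across genotypes, and 20344 to 20580 genes reached 1 TPM in sme1 libraries against 18827 to 18997 in WT libraries. All 7 tested markers of a root list of 10 were higher in sme1, with summed levels of 28.4 to 57.2 TPM in sme1 and 1.54 to 4.40 TPM in WT and no marker at 0 in all libraries. All 7 averaged less than 1 TPM in WT, so they reached the test only through sme1 and their calls are given as description only. The libraries of the genotypes overlapped for the root marker CASP1. Of 6 leaf markers 1 was higher and 3 were lower, with sums of 31814 to 36329 TPM in sme1 and 36138 to 38493 TPM in WT. Of 6 flower and pollen markers, 3 were tested and 2 were higher, with sums of 7.02 to 8.67 TPM in sme1 and 3.28 to 5.61 TPM in WT, and 1 was at 0 in all libraries. Of the 2 that were higher, SEP3 averaged 0.763 TPM in WT and reached the test only through sme1. The part of these tissue markers in the results below was not tested, and in shoot samples fewer cells of a type and less RNA per cell cannot be told apart.

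Genes around SME1 passed the test about as often as genes elsewhere. Of the 362 members, 214 could be tested and 154 passed, or 72.0%, against a background of 67.3% of all genes tested. In sme1, 110 were higher (51.4% of those tested, background 47.3%), 44 were lower (20.6%, background 20%), and 60 did not pass. The median log2 change was 0.24, with quartiles of -0.17 and 0.69, against 0.22 for all genes tested, with quartiles of -0.15 and 0.64. A change of at least 2-fold on the fitted scale was found for 31 members that were higher (background 14.1%) and 16 that were lower (background 4.74%). Past the test or not, 7.94% of tested members had a log2 change of -1 or less, against 4.86% of other genes. A change of 1 or less was found for 85.05% and 85.71%, so large falls were more frequent in the window and large rises were near the background. Of the 16 large falls, 6 lay in the 100-kb bin of SME1 described below. The excess of large falls was not tested. The libraries of the genotypes did not overlap for 166 tested members, or 77.6%, against a background of 73.5%. Median-of-ratios scaling, which lines libraries up by their typical gene, lowered the median of all genes to 0.00. On that scale 84 members were higher (background 33.9%) and 75 lower (background 33.2%), the region's median was 0.02, and 74.3% passed against a background of 67.1%, so the excess of rises over falls was shared with the whole table and depended on the scaling.

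**Figure D1:**
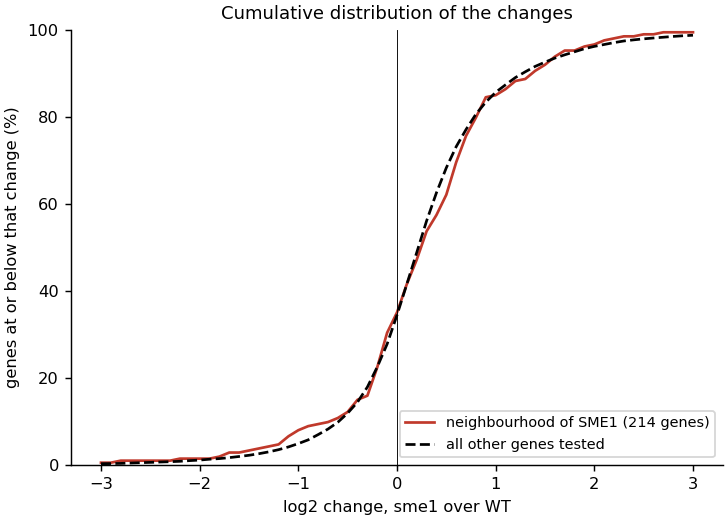
Cumulative distribution of the log2 change, sme1 over WT (x axis), for the 214 tested genes of the SME1 neighbourhood (solid line) and for all other genes tested (dashed line), with the percent of genes at or below each change on the y axis. The lines run close together, and the medians are 0.24 for the neighbourhood and 0.22 for all genes.

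The flanks and the 5 chromosomes gave shares near that background. Outside the window, 1898 of 2833 tested genes of chromosome 2 passed (67.0%, median log2 change 0.22), and the 5 chromosomes ranged from 66.8% to 68.1%. The 1.2 Mb beyond the left edge had 89 of 135 tested genes past the threshold (65.9%, median 0.18), and the same length beyond the right edge had 166 of 247 (67.2%, median 0.19). Left of SME1 within the window, 64 of 119 tested genes were higher and 24 lower, and right of it 46 of 94 were higher and 19 lower. The genes just inside the left edge were GLR2, for a glutamate receptor, with a log2 change of 0.56, and HSK, for homoserine kinase, with 0.62. GLR2 averaged 0.979 TPM in WT, so it reached the test only through sme1. Just outside the left edge lay AT2G17240 with 0.38 and EMB2762 with 0.71. At the right edge the innermost genes, AT2G20150 and MEO, were at or below 0.098 TPM in every library and not tested, and just outside AT2G20170 was listed at 0 in all libraries and PIL5, a phytochrome-interacting factor, had a change of 0.46.

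The total output of the region overlapped between the genotypes. Its members summed to 6887, 6404 and 6772 TPM in the sme1 libraries and to 6691, 6399 and 6112 TPM in the WT libraries, which was 0.640% to 0.689% of an sme1 library and 0.611% to 0.669% of a WT library. More members were detected in sme1: 220, 215 and 219 reached 1 TPM in its libraries, against 201, 199 and 201 in WT libraries, as with the counts over all genes. By mean level, 22 members reached 1 TPM in sme1 and not in WT, and 2 did so in WT and not in sme1.

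**Figure D2:**
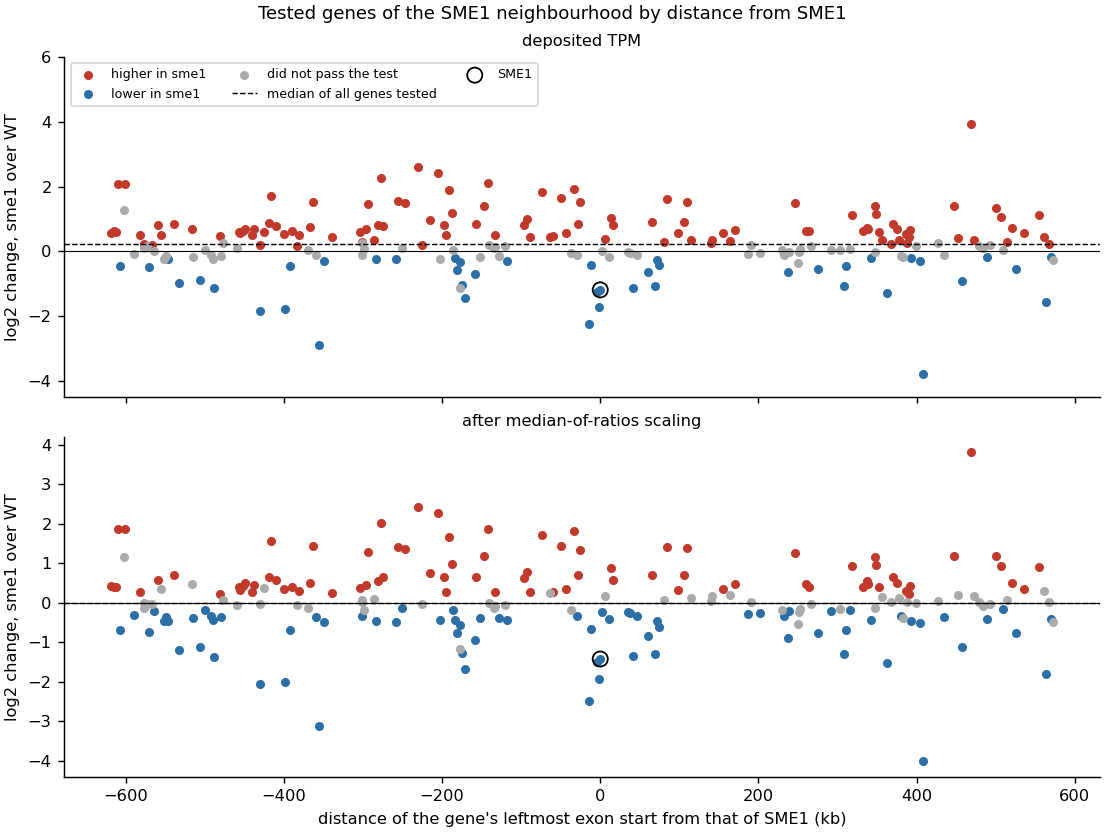
Log2 change, sme1 over WT (y axis), of each tested gene against the distance of its leftmost exon start from that of SME1 in kb (x axis), for the deposited TPM above and after median-of-ratios scaling below; red points were higher in sme1, blue points lower and grey points did not pass the test, the dashed line is the median of all genes tested and the open circle marks SME1. Rises and falls are spread over the window, from a log2 change of 3.95 for NADP-ME1 to -3.79 for MIOX2 in the upper panel, and the points beside SME1 lie mostly below 0.

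SME1 itself was at 36.1, 31.6 and 29.7 TPM in the sme1 libraries, against 76.9, 73.9 and 75.3 TPM in the WT libraries. All 3 sme1 libraries were lower than every WT library, so none went against its label, and the log2 change was -1.19 ± 0.08 (after a log2 change ± gives the standard error, and after a mean TPM the SD; limma adjusted p = 4.36e-05). Its main transcript had 21.3, 16.0 and 20.3 TPM in sme1 and 74.2, 71.1 and 70.4 TPM in WT, while an assembled transcript that begins inside the gene, TCONS_00018377, had 14.3, 14.7 and 9.40 TPM in sme1 and 0.648, 0.388 and 0.348 TPM in WT.

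SME1 was the last of 5 consecutive tested genes that were all lower in sme1, TPS11, SCY1, DGK3, AT2G18735 and SME1, which together span chr2:8108840-8125078. TPS11 encodes a member of the trehalose-phosphate synthase family and was at 25.9, 52.8 and 47.1 TPM in sme1 libraries, against 192, 228 and 168 TPM in WT libraries. It had the largest change of the run, a log2 change of -2.25 ± 0.26 (limma adjusted p = 0.00038). SCY1, for the SecY channel of the thylakoid membrane, stood at 82.6, 83.8 and 82.5 TPM in sme1 and at 112, 115 and 108 TPM in WT. This was the smallest change of the run, -0.42 ± 0.05 (limma adjusted p = 0.000326). The spans of TPS11 and SCY1 overlap by 213 bases on opposite strands, and no source used here says whether strand was used in quantifying the reads, so reads from that stretch may count for either.

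DGK3 encodes a diacylglycerol kinase, which turns diacylglycerol into phosphatidic acid. It was at 26.1, 28.4 and 27.6 TPM in sme1 libraries and at 62.3, 74.4 and 64.5 TPM in WT libraries, a log2 change of -1.26 ± 0.08 (limma adjusted p = 4.06e-05). The noncoding gene AT2G18735 was at 2.80, 2.85 and 2.53 TPM in sme1 and at 10.7, 12.1 and 11.4 TPM in WT, a log2 change of -1.74 ± 0.08 (limma adjusted p = 1.97e-05). In each of these 4 genes the libraries of the genotypes did not overlap. Between SCY1 and DGK3 lie 4245 bases with a pair of members that were too low to be tested: AT2G18720, at 0.121 to 0.613 TPM over the libraries, and AT2G18721, listed at 0 in all 6.

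The run ended at SME1. AT2G18750, whose start lies 49 bases past the end of SME1 in the sequence shown above, was at 56.4, 53.3 and 52.6 TPM in sme1 libraries and at 53.3, 55.2 and 53.8 TPM in WT libraries. Its groups overlapped and its log2 change was -0.00 ± 0.05 (limma adjusted p = 0.981). After median-of-ratios scaling it joined the run, with a log2 change of -0.24 (limma adjusted p = 0.00387). CHR8, for a SWI2/SNF2 chromatin remodelling ATPase, was at 5.26, 4.95 and 4.99 TPM in sme1 libraries and at 3.79, 3.99 and 3.32 TPM in WT libraries. It was higher in sme1 with a log2 change of 0.37 (limma adjusted p = 0.00738), did not pass after median-of-ratios scaling (0.18), and had the opposite sign after quantile normalization (-0.10).

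**Figure D3:**
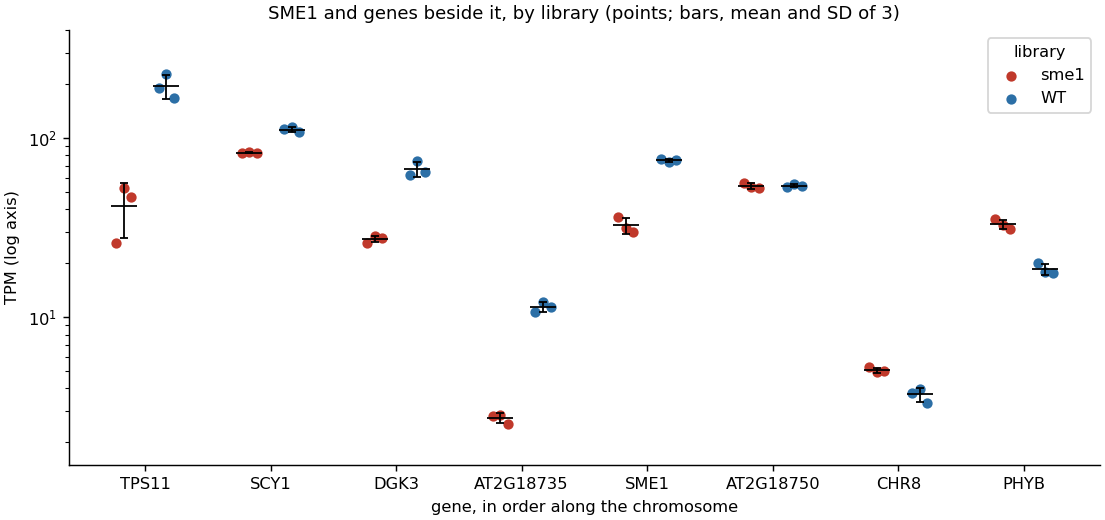
TPM on a log axis in each of the 6 libraries for SME1, genes on either side of it and PHYB, in chromosome order, with sme1 libraries in red at the left of each gene and WT libraries in blue at the right; black bars are the mean and SD of 3. The sme1 points lie below the WT points for TPS11, SCY1, DGK3, AT2G18735 and SME1, overlap them for AT2G18750 and lie above them for CHR8 and PHYB.

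Further genes near SME1 changed in both directions. PHYB, for the red-light photoreceptor phytochrome B, starts 16.7 kb to the right and was at 35.1, 32.8 and 31.1 TPM in sme1 libraries, against 20.1, 17.98 and 17.6 TPM in WT libraries. All sme1 libraries were above all WT libraries, and the log2 change was 0.80 ± 0.07 (limma adjusted p = 0.000152). The F-box protein gene AT2G18780, between CHR8 and PHYB, averaged 3.13 ± 0.313 TPM in sme1 and 1.03 ± 0.161 TPM in WT (SD, n = 3 each), a log2 change of 1.03. The syntaxin family gene AT2G18860 averaged 26.0 ± 3.08 TPM in sme1 and 57.8 ± 3.57 TPM in WT (SD, n = 3 each), a log2 change of -1.13, and the protein kinase gene AT2G18890 had a change of -0.63. AT2G18770, AT2G18840, AT2G18850 and AT2G18876 did not pass, with log2 changes of -0.19 to -0.01, but all 4 passed as lower on the median-of-ratios scale, with changes of -0.41 to -0.23, and on the quantile scale.

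To the left, PNP-A, for a secreted peptide of the plant natriuretic family, was at 2.30, 3.47 and 6.75 TPM in sme1 libraries and at 0.290, 0.303 and 0.208 TPM in WT libraries. The groups did not overlap, and the log2 change was 1.94 ± 0.30 (limma adjusted p = 0.00121). As every WT library was under 1 TPM, PNP-A reached the test only through sme1, and its call is given as description only. The uncharacterized genes AT2G18690, AT2G18680 and AT2G18630 were also higher, with log2 changes of 1.51, 0.84 and 0.56, and AT2G18680 no longer passed after quantile normalization (0.28). AT2G18680 averaged 0.960 TPM in WT and also reached the test only through sme1. The RING/U-box genes AT2G18670 and MEE16 did not pass, with changes of -0.11 and -0.05. AT2G18670 passed as lower on the median-of-ratios scale (-0.34) and on the quantile scale (-0.31), and MEE16 on the quantile scale (-0.66). AT2G18670 and AT2G18680 have overlapping spans on the same strand, so their levels are uncertain.

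In bins of 100 kb the bin of SME1, from 8100000 to 8199999, was the only one of the 12 in the window with more genes lower than higher in the deposited TPM. Of its 19 tested genes 4 were higher and 10 were lower, with a median log2 change of -0.25. The lower genes were the run of 5 with AT2G18860, AT2G18890, AT2G18910, AT2G18915 and AT2G18917, and the higher ones were CHR8, AT2G18780, PHYB and AT2G18900. AT2G18915 and AT2G18917 overlap by 370 bases on opposite strands, as TPS11 and SCY1 do by 213. Reads from these stretches may count for either gene of a pair, so the calls within a pair may not be separate. Median-of-ratios scaling gave 3 higher and 15 lower, but with it 33.2% of all genes tested were lower, against 20% before. The bins from 7600000, 8300000 and 8500000 then also had more lower than higher genes (8 and 7, 6 and 3, 6 and 5). Leaving out each library in turn gave 4 higher and 9 to 11 lower in the bin of SME1. In the next bin, from 8200000 to 8299999, all 11 tested genes were higher in sme1, with a median of 0.56, and after median-of-ratios scaling 6 were higher and none lower. Of the 947 bins with at least 10 tested genes on the 5 chromosomes, 79 had more lower than higher genes in the deposited TPM. In the same TPM 9 bins, the bin of SME1 included, had a share of lower genes at least as large as that bin. The bin with all genes higher was 1 of 2 bins of that kind.

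**Figure D4:**
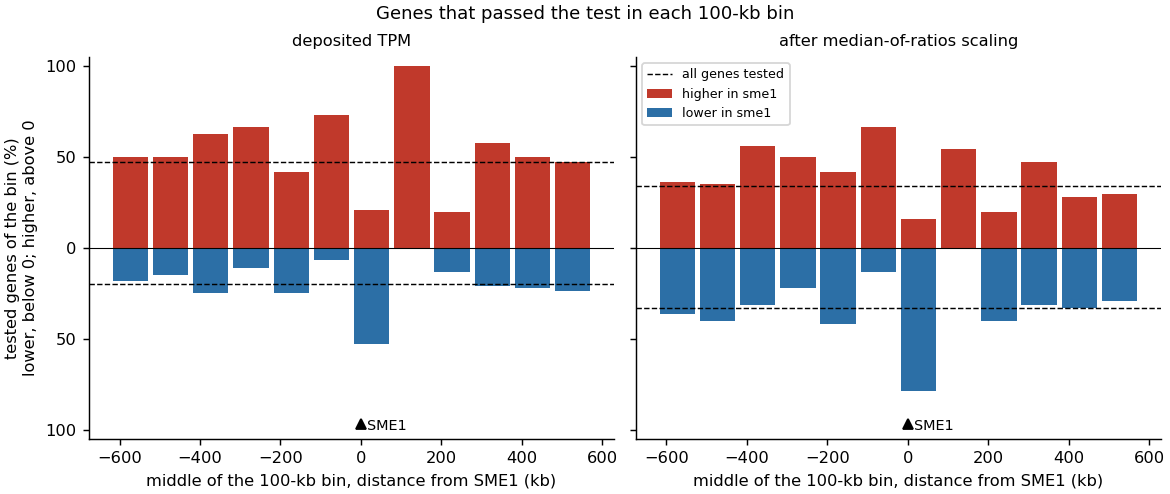
Percent of the tested genes of each 100-kb bin that were higher in sme1 (red, above 0) or lower (blue, below 0), against the distance of the middle of the bin from SME1 in kb, for the deposited TPM at the left and after median-of-ratios scaling at the right; dashed lines are the percent of all genes tested in each direction and the triangle marks SME1. The bin of SME1 has 10 of 19 genes lower at the left and 15 of 19 at the right, and the next bin has none lower in either panel.

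Runs of neighbouring genes with the same call were not rare elsewhere. Across the 5 chromosomes 23 runs of at least 5 consecutive tested genes were lower, the longest of 9 genes, and the run ending at SME1 was the only one of them in the window. After median-of-ratios scaling, when AT2G18750 made it a run of 6, there were 36 lower runs of at least 6. The longest run of higher genes in the window held 11 genes, AT2G18940 to AT2G19130, at chr2:8203705-8296485, and 14 runs of at least 10 higher genes were found on the 5 chromosomes, the longest of 20. It contained HPT1, which encodes an enzyme of tocopherol synthesis, HA1, a plasma membrane proton pump, the peroxidase gene AT2G18980, the thioredoxin-like gene TXND9 and HMA4, which exports zinc and cadmium. HPT1 was at 39.6, 33.7 and 37.7 TPM in sme1 libraries and at 10.2, 12.2 and 11.5 TPM in WT libraries, a log2 change of 1.63 ± 0.09 (limma adjusted p = 2.74e-05). HA1 was at 185, 138 and 134 TPM in sme1 libraries and at 104, 102 and 98.1 TPM in WT libraries, a log2 change of 0.56 ± 0.12 (limma adjusted p = 0.00632). Neither gene's groups overlapped.

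Adjacent tested genes changed in the same direction in 128 of 213 pairs of the window, or 60.1%, against 58.7% of adjacent pairs on the 5 chromosomes. The shares were 60.5% for pairs on the same strand, 63.8% for divergent pairs and 55.3% for convergent pairs, against 59.6%, 59.5% and 56.1% over all chromosomes. After median-of-ratios scaling the shares of all pairs were 58.2% in the window and 54.3% over all chromosomes.

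The largest rise of the region was that of NADP-ME1, a cytosolic malic enzyme that turns malate into pyruvate and makes NADPH. It was at 20.7, 12.5 and 21.8 TPM in sme1 libraries and at 0.201, 0.198 and 0.261 TPM in WT libraries, a log2 change of 3.95 ± 0.20 (limma adjusted p = 2.44e-05). Only 45 bases separate its start from the neighbouring gene's span; they are shown on the minus strand, from chr2:8595560-8595604 of TAIR10.1, with ACGTGGC, the core of an abscisic acid-responsive element, in capitals.
before NADP-ME1: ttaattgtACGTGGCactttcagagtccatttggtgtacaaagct
This motif was added to the search after the stretch had been read, and 3.90% of the 300-base windows upstream of all tested genes and 4.21% of those of tested members hold it on either strand. Of the members that were higher 3.64% hold it, and of those lower 2.27%, and it can overlap the G-box below. A match describes letters and not a site in use.

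Other members with large rises were the peroxidase gene AT2G18150, with 25.5, 12.6 and 19.6 TPM in sme1 libraries and 2.06, 1.56 and 3.11 TPM in WT libraries (log2 change 2.62). HIS1-3, a linker histone known to be induced by drought and abscisic acid, was at 492, 338 and 471 TPM in sme1 libraries and at 79.9, 90.6 and 96.4 TPM in WT libraries. Its log2 change was 2.26 ± 0.15 (limma adjusted p = 4.81e-05), and in sme1 it was among the most abundant RNAs of the region. The ATPase family gene AT2G18193 (2.42), the lipid-transfer protein gene AT2G18370 (2.10), the phosphoglycerate mutase family gene AT2G17280 (2.08), the uncharacterized AT2G17300 (2.07) and the ubiquitin-conjugating enzyme gene AT2G18600 (1.65) rose by the log2 changes given. AT2G18193 averaged 0.353 TPM in WT, so it reached the test only through sme1. PPa2, a soluble inorganic pyrophosphatase, averaged 67.8 ± 9.72 TPM in sme1 and 17.4 ± 1.10 TPM in WT (SD, n = 3 each), a log2 change of 1.90. The groups overlapped in none of these genes.

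The largest fall was that of MIOX2, a myo-inositol oxygenase, which opens the inositol ring to glucuronic acid on the way to cell wall sugars. It was at 12.4, 15.3 and 15.6 TPM in sme1 libraries and at 430, 197 and 111 TPM in WT libraries. The WT libraries differed from each other by more than 3-fold, yet all lay above every sme1 library, and the log2 change was -3.79 ± 0.45 (limma adjusted p = 0.000389). The chaperone DnaJ-domain gene AT2G17880 was at 6.21, 10.3 and 8.85 TPM in sme1 libraries and at 70.1, 70.6 and 63.6 TPM in WT libraries, a log2 change of -2.89 (limma adjusted p = 2.94e-05).

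HBI1, a basic helix-loop-helix factor that promotes growth, was at 72.7, 111 and 99.1 TPM in sme1 libraries and at 255, 264 and 239 TPM in WT libraries. Its groups did not overlap, and the log2 change was -1.43 ± 0.15 (limma adjusted p = 0.000232). The methionine-S-oxide reductase gene AT2G17705 (-1.85), MCA2, linked to calcium uptake (-1.77), COV1, a membrane protein that acts in vascular patterning (-1.57), and NDL3, of the N-MYC downregulated-like family (-1.30), fell by the log2 changes given, also with no overlap. The whole span of AT2G17705 lies within AT2G17710 on the same strand, 858 bases, and AT2G17710 was called higher, so the level of AT2G17705 is uncertain.

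**Figure D5:**
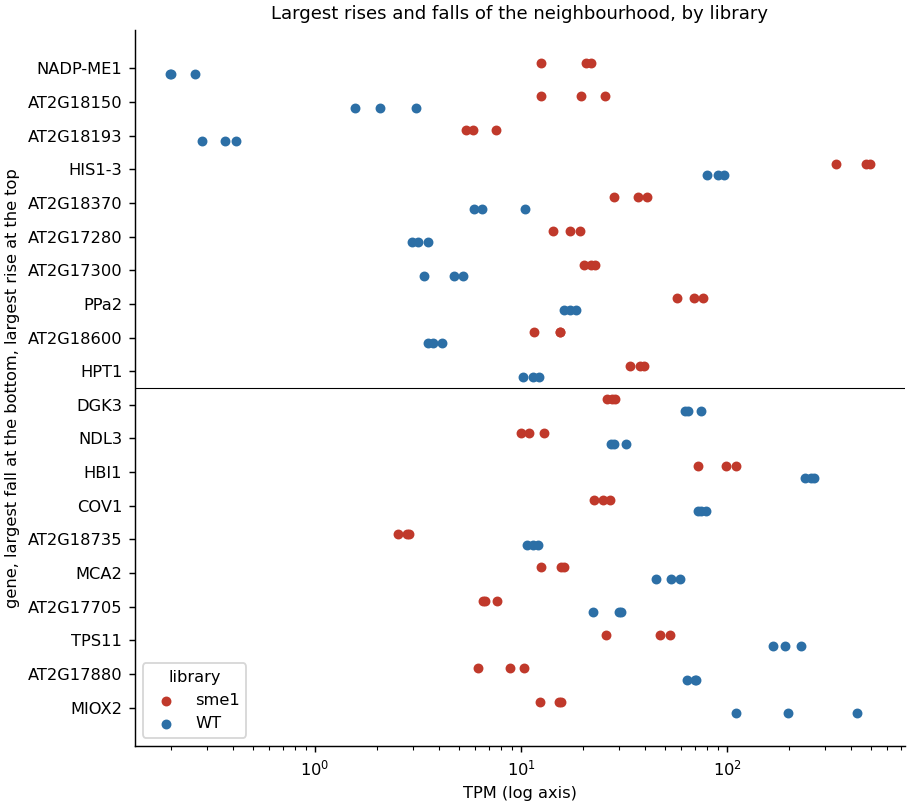
TPM on a log axis in each library for the 10 largest rises (upper part) and the 10 largest falls (lower part) among members past the test whose groups did not overlap and whose higher group averaged at least 5 TPM, with sme1 libraries in red above WT libraries in blue. The uppermost row is NADP-ME1, at 12.5 to 21.8 TPM in sme1 and 0.198 to 0.261 TPM in WT, and the WT libraries of MIOX2 spread from 111 to 430 TPM.

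Described by role, the members of lists drawn up for the region also moved both ways, beside 47.3% higher, 20% lower and a median log2 change of 0.22 over all genes tested; each list is too short to be read against those shares. Of 13 metabolic genes 11 were tested, 7 rose and 3 fell, with a median log2 change of 0.81. The 3 that fell were TPS11, DGK3 and MIOX2, and the risers included NADP-ME1, HPT1, PPa2 and HXK2, a hexokinase, which averaged 38.6 ± 2.77 TPM in sme1 and 13.998 ± 0.226 TPM in WT (SD, n = 3 each; log2 change 1.40). Counts after median-of-ratios scaling were 7 and 3 again. Of 10 genes of light, flowering and development 8 were tested, 4 rose and 3 fell, with a median of 0.36. FVE, a WD-repeat protein of the autonomous flowering pathway, rose with PHYB (log2 change 0.63), and the blue-light receptor LKP2, AT2G18915, fell with HBI1 and COV1. The span of LKP2 overlaps that of AT2G18917, as given above. The counts of this list were also 4 and 3 on the median-of-ratios scale.

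Of 8 stress and defence genes 7 were tested, 4 rose and 1 fell; on the median-of-ratios scale 4 were higher and 2 lower. HIS1-3 and PNP-A rose with PR-1-LIKE, a relative of a pathogenesis-related protein, at 2.41, 2.32 and 2.65 TPM in sme1 libraries and 0.858, 0.668 and 0.465 TPM in WT libraries, and with ERD7, a dehydration-induced gene, with a log2 change of 0.74. PNP-A and PR-1-LIKE were under 1 TPM in every WT library, so both reached the test only through sme1. MLO8, of the family named for mildew resistance, fell by 0.99 on the log2 scale. FRK1, a receptor-like kinase gene used as a marker of flagellin perception, was at 0.794, 2.09 and 1.96 TPM in sme1 libraries and 0.0933, 0.0617 and 0.0755 TPM in WT libraries, but its mean over all libraries was too low for it to be tested.

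Of 5 transport genes 4 were tested, 3 rose (HA1, HMA4 and KEA4, a potassium exchanger) and SCY1 fell; KEA4 did not pass after median-of-ratios scaling (0.15) or without WT replicate 2 or 3, and HMA4 did not after quantile normalization (0.18). Of 6 kinase and GTPase genes 5 were tested, 2 rose and 2 fell. The rises included MPK7, a MAP kinase with a log2 change of 0.98, 1 gene rose after median-of-ratios scaling, and the falls were CPK6, a calcium-dependent protein kinase (-0.46), and PERK4, a receptor-like kinase (-0.29), which lost its call when WT replicate 1, 2 or 3 or sme1 replicate 1 or 3 was left out (adjusted p by limma of 0.0523 to 0.12) and with the replicate block (0.0863). Of 5 genes of wall, cytoskeleton and trafficking 3 were tested: VPS35A, a retromer subunit, rose by 0.64 on the log2 scale, PRF1, a profilin, fell by 0.22, and SNF7.2, an ESCRT-III subunit, did not pass at -0.11. After median-of-ratios scaling 1 of these was higher and 2 lower, SNF7.2 among the lower (-0.35).

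All 10 genes of RNA, ribosome and chromatin were tested. In the deposited TPM 6 rose and 2 fell; on the median-of-ratios scale 2 rose and 4 fell, so the direction of this list turned with the scaling. The ribosomal protein gene EMB2296, the member with the highest mean over all 6 libraries, was at 388, 374 and 399 TPM in sme1 libraries and at 308, 310.1 and 299 TPM in WT libraries, a log2 change of 0.34 (limma adjusted p = 0.00106) that became 0.10 after that scaling and no longer passed. The ribosomal protein genes AT2G19730 and AT2G17360 had changes of 0.25 and 0.23 that became 0.01 and -0.01. HMGB4, a high mobility group protein, and PRMT1A, a protein arginine methyltransferase, were higher on both scales, with 0.46 and 0.70 in the deposited TPM, and PRMT1A no longer passed after quantile normalization (0.23). Among the most abundant members that did not pass were GUT15, a noncoding RNA at 349, 312 and 320 TPM in sme1 libraries and 360.1, 360.5 and 369 TPM in WT libraries, and NAP1;2, a histone chaperone with a log2 change of 0.06; after median-of-ratios scaling both passed as lower (-0.39 and -0.17).

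In the deposited TPM, level and the presence of an assembled transcript went with the direction of change, in the window as in the whole table. Of the 57 tested members with a mean of 1 to 5 TPM, 38 were higher and 4 lower, and of the 80 with at least 20 TPM, 35 were higher and 29 lower. In the whole table the shares were 53.2% higher and 9.33% lower at 1 to 5 TPM and 41.5% higher and 29.8% lower from 20 TPM. This pattern depended on the scaling: after quantile normalization 16 members at 1 to 5 TPM were higher and 15 lower, and over all genes at that level 1112 were higher and 1634 lower. From 20 TPM that scale gave 32 members higher and 34 lower, and 2852 and 2975 of all genes. The filter can also shape the counts at 1 to 5 TPM, as a gene could enter the test through 1 genotype. In sme1 alone 22 members averaged at least 1 TPM, of which 7 were not tested. In WT alone 2 did, of which 1 was not tested. The part of the filter in the excess of rises at low levels was not tested. Of the 74 tested members with a transcript assembled from these reads, 27 were higher and 25 lower, and of the 140 without one 83 were higher and 19 lower; over all genes 41.8% and 27.1% of the genes with an assembled transcript were higher and lower, and 50.4% and 16.0% of those without. On the quantile scale 17 members with an assembled transcript were higher and 39 lower, and without one 52 were higher and 42 lower. Over all genes that scale gave 2200 higher and 3002 lower with an assembled transcript. Without one it gave 3916 higher and 4291 lower, so there the window and the whole table leaned opposite ways. Assembled transcripts were found in 75 of the 362 members. By gene type, 205 of 301 protein-coding members were tested and 151 passed (73.7%), while 9 of the other 61 members were tested and 3 passed (33.3%); over all genes the shares were 68.9% and 45.8%. The 148 members that were not tested included 55 listed at 0 in all 6 libraries, and 7 of the 148 averaged at least 1 TPM in sme1.

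Transcript usage, the share of a gene's output given by each of its transcripts, was tested with limma diffSplice on members with at least 2 transcripts of 1 TPM or more. Of 87 such members 16 passed, or 18.4%, against a background of 23.2%. In simulated data this test called some unchanged genes, so a limma test of each transcript against the rest of its gene was added after the data had been seen. By that test 11 members passed (12.6%, background 13.1%), and 9 passed both (10.3%, background 11.7%). SME1 had the smallest adjusted p (1.01e-08, limma diffSplice), through the pair of transcripts given above. HA1 was next (2.91e-06), and its assembled transcript TCONS_00017845 was at 2.25, 3.24 and 1.99 TPM in sme1 libraries and 6.92, 6.51 and 5.44 TPM in WT libraries, against the direction of the gene. In AT2G19250 (limma diffSplice adjusted p = 0.000173) the assembled transcript TCONS_00013353 was at 2.08, 3.21 and 2.01 TPM in sme1 libraries and at or below 0.0719 TPM in WT libraries, while the gene did not pass for its level. That transcript averaged 2.43 TPM in sme1 and 0.024 TPM in WT, so it reached the filter only through sme1. The same holds for TCONS_00018377 of SME1, with 12.8 and 0.461 TPM. Both calls were open to that choice of transcripts and are given as description only. AT2G19880 followed, with a limma diffSplice adjusted p of 0.000665. NADP-ME1 also passed, but its transcripts reached the filter only through sme1, and with the whole gene at or below 0.261 TPM in WT libraries its usage there is not known, so nothing is read from that call.

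Retained introns were compared as the ratio of the TPM of transcripts that keep an intron to the TPM of transcripts that splice out exactly that intron. Of 141 introns in 76 members, 4 passed (2.84%, background 5.59%), and all 4 were kept more in sme1 (background 4.56%). The median log2 change of the ratio was 0.28 in the window and 0.26 over all introns tested. The 4 calls rest on the pseudocount and on single libraries: 15 passed with a pseudocount of 0.5 TPM in place of 0.1, and 0 to 2 passed when a library was left out.

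The ends of the called introns are shown with 6 exon bases and 18 intron bases, on the strand of the gene and from TAIR10.1, with the first GT or last AG of the intron in capitals. They lie at chr2:8584285-8584308 and chr2:8584451-8584474 for AT2G19880, at chr2:7668952-7668975 and chr2:7668852-7668875 on the minus strand for ATSERAT3;1, and at chr2:7608377-7608400, chr2:7608441-7608464, chr2:7608779-7608802 and chr2:7608848-7608871 for AT2G17500.
AT2G19880 donor: atttagGTgggttatgtgtttaag
AT2G19880 acceptor: ggatgaggttctatgtAGgtatga
ATSERAT3;1 donor: ttacatGTaagcgtctcttctcca
ATSERAT3;1 acceptor: cacagggtgtgactttAGgaggaa
AT2G17500 left donor: tcttggGTagttaccaaaatcttg
AT2G17500 left acceptor: actttaccgattatgcAGagatgg
AT2G17500 right donor: atatcgGTtagtcataaatcatca
AT2G17500 right acceptor: aaaaattgttacttacAGgtacca

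In AT2G19880, of the nucleotide-diphospho-sugar transferase family, the intron kept in sme1 runs from 8584291 to 8584468. The retained share was 62.1%, 81.1% and 65.6% in sme1 libraries and 13.1%, 23.1% and 38.0% in WT libraries, a log2 change of the ratio of 2.82 ± 0.55 (limma adjusted p = 0.0389). Each side of that ratio is 1 assembled transcript: the retaining one was at 2.28, 3.22 and 2.54 TPM in sme1 and 0.752, 1.94 and 2.29 TPM in WT, and the splicing one at 1.39, 0.749 and 1.34 TPM in sme1 and 4.99, 6.45 and 3.73 TPM in WT. Most of the gene's RNA used another donor at 8584265 with the same acceptor, at 11.3, 9.80 and 11.6 TPM in sme1 libraries and 21.6, 20.9 and 19.9 TPM in WT libraries. The gene as a whole was lower in sme1, with a log2 change of -0.91 (limma adjusted p = 6.64e-05).

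ATSERAT3;1, for a serine acetyltransferase of cysteine synthesis, kept the intron from 7668858 to 7668969 more in sme1. The retained share, beside transcripts that splice out exactly that intron, was 64.7%, 71.6% and 67.9% in sme1 libraries. It was 41.0%, 35.7% and 48.4% in WT libraries. Here too the spliced side was a minor form: the acceptor used by most of the RNA lies further upstream in the gene, at position 7668871 of the chromosome, and that form was at 15.9, 15.8 and 15.3 TPM in sme1 libraries and 11.2, 9.75 and 13.2 TPM in WT libraries. In AT2G17500, an auxin efflux carrier family gene, both calls came from 1 assembled transcript, TCONS_00017841, that keeps both introns. Its share was 9.07%, 7.84% and 10.9% in sme1 libraries and 3.13%, 3.12% and 3.61% in WT libraries, so the calls are not independent. The spans of AT2G17500 and its neighbour AT2G17510 overlap by 993 bases on opposite strands. Whether strand was used in quantifying the reads is not known, so reads of AT2G17510 may count for this transcript.

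Upstream windows of 300 bases, read from TAIR10.1 before each annotated start, were searched on both strands for 5 motifs besides ACGTGGC. The G-box CACGTG was in 7.94% of the windows of tested members, the evening element core AATATCT in 9.81%, the site II element TGGGCC in 16.8%, the telo box AAACCCT in 10.3% and the W-box TTGACC in 10.7%. Over all tested genes the shares were 7.46%, 11.6%, 17.1%, 7.60% and 13.4%. AATATCT was in 14 of the 110 members that were higher and in 1 of the 44 that were lower, while over all genes its share was 11.97% in those higher and 12.3% in those lower. These are counts of letters, with no test.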

How the data were processed

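Libraries were made with a stranded Illumina mRNA kit and sequenced as 150 bp read pairs, per the labels' protocols. STAR 2.5.2b and kallisto 0.43.0 are named in the submitters' processing notes. The authors deposited TPM per gene and per transcript for the 6 libraries and a transcript annotation of 59448 Araport11 and 16761 scallop-assembled transcripts, per the file headers and contents. Of the gene identifiers, 37573 of 37869 matched RefSeq TAIR10.1, all 362 members included. The coordinates were checked against TAIR10.1, where 99.7% of 1549 introns of the window had GT or GC and AG ends.

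Computed from these were limma (3.58.1, R 4.3.3) fits with trend on log2(TPM + 1) over all genes that averaged 1 TPM or more, diffSplice on transcripts, and limma on log2 ratios of retained to spliced TPM with 0.1 TPM added, at a sum of at least 2 TPM. The fits were tested on simulated data. TPM carry no depth, so no counting interval or floor is given. Symbols and products are those of RefSeq, with SME1 from the labels. Promoter tables were not used here, and upstream windows were read from the genome.

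Position alone chose the members, but the window and the role lists were drawn up with earlier results of these data known. Genes named are SME1 and the 10 tested genes on each side, the 10 largest rises and falls, the 5 most abundant members, the 3 most abundant that did not pass, up to 4 members of each list by adjusted p, the genes at the edges and those leading transcript usage and intron retention. Others are named as members of a bin, a run or a list, after their values were seen. No member was at 0 in all libraries of 1 genotype and at least 1 TPM in all of the other. A result on 1 member that this rule names is not reported here.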

Additional observations from a re-analysis of the deposited data

How the results depend on the processing

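Of the 68 named genes that were tested, 46 kept their call (higher, lower or not past the threshold) under every alternative. Signs turned for CHR8 (-0.10) and GLR2 (-0.0294) after quantile normalization and for AT2G17360 (-0.00976) and NAP1;2 (-0.17) after median-of-ratios scaling. MEE16, AT2G18750, AT2G18840 and AT2G19250, with changes near 0, also took the other sign, in fits in which they did not pass. The region's median log2 change was 0.0182 after median-of-ratios scaling, -0.0208 after quantile normalization, 0.18 with no filter and 0.14 for genes of at least 5 TPM. Median-of-ratios scaling gave 75 lower members, beside 6674 of all 20100 genes tested. Quantile normalization gave 69 higher and 81 lower, beside 6116 and 7293 of all genes tested. The filter at 5 TPM gave 72 higher, with no share over all genes given beside it. The window from 7800000 to 8400000 held 72 called members of 102 tested (70.6%), 51 higher and 21 lower, and the window from 6900000 to 9300000 held 299 of 431 (69.4%), with 216 higher and 83 lower, beside 67.3% of all genes tested. Leaving out each library in turn gave 136 to 148 called members, 100 to 108 higher, 36 to 42 lower and a median of 0.21 to 0.26, while 59.5% to 63.8% of all genes passed. Transcript usage then passed in 10 to 14 members (14.6% to 19.97% of all genes tested) and 0 to 2 introns passed (0% to 1.496% of all introns). With a pseudocount of 0.5 TPM 15 introns passed, with no share over all introns given beside it. The cause of these shifts was not tested.

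The deviations of same-numbered libraries from their group means had correlations of 0.0168, 0.0562 and 0.0322, too low to treat the numbers as pairs, although all 3 libraries of each genotype correlated best with their own number, a hint from the data and not the design. With the replicate number as a block, 146 members passed, 106 higher and 40 lower, 14 passed for transcript usage and 0 introns passed. The shares over all genes and introns with the block are not given, so these counts are not read as particular to the region.

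Limits are the 3 libraries a genotype, the single allele, the unknown depth, and levels of overlapping genes: 80 members overlap a gene on the opposite strand, and some overlap one on the same strand.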
